A study of Mus musculus with 36 samples.

Results

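The end point of B cell to macrophage transdifferentiation (BMT) driven by wild-type C/EBPα was compared with its starting B cells. The comparison used the 2 libraries of wild-type cells at 120 h after induction and the 2 libraries at 0 h, 4 of the 36 libraries of the series. They were taken by their column names and sample titles, and the question was which abundant transcripts were lost, which were gained and which B cell genes were retained. The cells were B cells isolated from the bone marrow of C57BL/6J mice of balanced sex, whose age was not given in the sources used here. All of them carried a retrovirus encoding C/EBPα fused to the hormone-binding part of the estrogen receptor (C/EBPα-ER) and the surface tag hCD4, and hCD4+ cells were grown on inactivated mouse embryonic fibroblast (MEF) feeders. At 0 h the cells had IL-7 and no estradiol (E2). Induction added E2 together with IL-3, FLT-3, mCSF-1 and mSCF, and IL-7 was left out of the renewed medium. Factor, cytokines, time in culture and contact with feeders therefore changed together and cannot be told apart in this comparison. The mutant constructs R35A and R35K, in which arginine 35 of C/EBPα was replaced, were handled alike, and their own libraries at 0 h and 120 h are set beside the wild-type values at the end. The R35A libraries entered the same fit and share its estimate of the spread with the wild-type libraries. The R35K libraries were fitted and scaled alone, and whether they formed a batch of their own is not known here.

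Bone marrow pre-B cells are held in their lineage by Pax5, Ebf1 and Tcf3, and they display a pre-B cell receptor made of the μ heavy chain, the surrogate light chain (Igll1, Vpreb1) and the signalling subunits Cd79a and Cd79b. C/EBPα and PU.1 (encoded by Spi1) are the transcription factors that drive the myeloid lineage, in which macrophages take up, digest and present material with the help of Fc and scavenger receptors, lysosomal proteases and the phagocyte oxidase. B cells and macrophages share some genes, among them kinases such as Btk and Syk, the antigen presentation machinery and PU.1 itself.

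Promoter sequence is shown for genes that were lost, kept and gained, to place the motif letters of B cell and myeloid factors beside the direction in which these genes changed. The sequences are the 130 bases just before the RefSeq gene start on GRCm38.p6, written 5′ to 3′ along the gene's strand, with matches to the motifs in capitals. Cd22 and Vpreb3 fell, and Mmp12 and Cd68 rose. Fcrl1 and Cd37 were kept, that is, not called lower, and of these Fcrl1 rose and Cd37 was not called. These genes were picked for a motif within the bases printed, so they do not stand for their sets.
Vpreb3 (chr10:75948170-75948299, plus strand, octamer): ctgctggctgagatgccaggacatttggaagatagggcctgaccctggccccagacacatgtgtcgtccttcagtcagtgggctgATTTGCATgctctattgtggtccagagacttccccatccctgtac
Cd22 (chr7:30879029-30879158, minus strand, EBF1): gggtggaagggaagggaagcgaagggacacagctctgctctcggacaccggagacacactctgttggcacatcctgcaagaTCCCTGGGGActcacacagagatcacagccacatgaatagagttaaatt
Fcrl1 (chr3:87376257-87376386, plus strand, PU.1): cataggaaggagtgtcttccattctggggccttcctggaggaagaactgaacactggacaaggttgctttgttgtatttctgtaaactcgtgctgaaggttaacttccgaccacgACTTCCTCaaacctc
Cd37 (chr7:45238840-45238969, minus strand, PU.1): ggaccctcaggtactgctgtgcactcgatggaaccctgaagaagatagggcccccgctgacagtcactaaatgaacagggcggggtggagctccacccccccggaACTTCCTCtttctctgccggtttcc
Mmp12 (chr9:7344267-7344396, plus strand, PU.1 then C/EBP): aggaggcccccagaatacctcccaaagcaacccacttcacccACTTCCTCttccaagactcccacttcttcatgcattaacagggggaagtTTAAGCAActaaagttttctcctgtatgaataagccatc
Cd68 (chr11:69666171-69666300, minus strand, C/EBP): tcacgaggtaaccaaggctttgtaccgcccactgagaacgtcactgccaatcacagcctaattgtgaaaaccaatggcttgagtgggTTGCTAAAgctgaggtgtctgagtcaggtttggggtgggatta

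The motifs searched, on both strands and allowing overlaps between them, were ATGCAAAT for the octamer of Oct factors, TCCC and GGGA with 2 bases between them for EBF1, GAGGAAGT for PU.1 and TTGCNNAA for C/EBP, in the 250 bases before the gene start. Of the genes tested, 11753 had a RefSeq promoter under their symbol. The EBF1 letters stood in 0.978% of these promoters and in 2 of 35 (5.71%) of the B cell genes called lower, and the octamer in 1.3% and in 2 of 35. The PU.1 letters stood in 2.57% of all promoters tested, in 4 of 76 (5.26%) of the macrophage genes called higher and in 2 of 24 (8.33%) of the B cell genes kept. The C/EBP letters stood in 7.55% of all and in 9 of 76 (11.8%) of the macrophage genes called higher. Among B cell genes they stood in 5 of 35 (14.3%) of those called lower and in 3 of 24 (12.5%) of those kept. Of the 15 most abundant gained genes, 11 had a promoter, and the C/EBP and the PU.1 letters each stood in 0 of 11. These are matches of letters in a short window, described without a test.

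Total counts were 13473204 and 13044456 at 0 h and 14348629 and 13198689 at 120 h. Levels are given in CPM, counts divided by the library's total scaled by TMM, whose factors were 1.05 and 1.06 at 0 h and 0.841 and 0.846 at 120 h. A gene was called when it changed at least 1.5-fold with an adjusted p of at most 0.05 (edgeR's quasi-likelihood test, Benjamini-Hochberg adjustment). Markers of feeder fibroblasts were present at 0 h, although harvesting included a step to remove feeders. The 16 markers, among them the collagens Col1a1, Col1a2 and Col3a1, summed to 4718 and 4818 CPM at 0 h and to 319 and 289 CPM at 120 h, and all 16 were called lower. In between, the sum did not fall steadily. It stood at 175% of its 0 h level at 1 h and at 234% at 18 h. At 0 h, Col1a1 was at 362 and 367 CPM, and of the defining markers only Lum was at or under 3 counts in both 120 h libraries. Values that bear on this are given beside the results below, and the part of the feeders in them was not tested. In these bulk samples, fewer cells of a type and less RNA per cell cannot be told apart.

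The 8 defining markers of B or pre-B cells were all present at 0 h, and the 8 of macrophages at 120 h. Itgam, which encodes CD11b of the Mac-1 integrin, went from 1.98 and 1.96 CPM at 0 h to 464 and 462 CPM at 120 h (log2 fold change 7.87, SE 0.0777, adjusted p = 2.44e-55). The groups lay far apart and the libraries of a group close together. Squared differences between replicates were 1.24 times counting noise at 0 h and 1.97 times at 120 h, as medians over well-counted genes. The SE and p values given here measure the spread between the libraries fitted and no wider variation. Cebpa was counted at 44.3 and 39.2 CPM at 0 h and 101 and 94.3 CPM at 120 h (log2 fold change 1.23, SE 0.0655, adjusted p = 4.98e-23), and since the retrovirus carries a C/EBPα coding sequence, reads of the construct and of the endogenous gene, at chr7:35119293-35121928 (plus strand) in mm10, cannot be told apart. Spi1, at chr2:91082390-91115756 (plus strand), rose from 33.8 to 377 CPM on average (log2 fold change 3.48, SE 0.0507, adjusted p = 8.38e-48).

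Of 16988 genes tested, 6832 (40.2%) were lower and 3925 (23.1%) higher at 120 h. More genes were lower than higher under every scaling tried, but the split moved, from 8572 lower and 3130 higher with total counts in place of TMM to 5153 lower and 4483 higher when the 4 libraries were fitted alone. Beyond 4-fold, 3376 genes were lower and 1668 higher. The counts were held by fewer genes at 120 h. The 10 most abundant genes took 4.03% and 4.09% of all counts at 0 h and 8.06% and 7.96% at 120 h, and the 100 most abundant took 14.8% and 14.9% against 22.8% and 22.7%. Genes with at least 10 counts numbered 14859 and 14686 at 0 h and 13163 and 13006 at 120 h. The genes called higher held 16.7% and 16.8% of the counts at 0 h and 55.4% and 55.2% at 120 h. Ranked per kilobase of exon, 82 of the 200 most abundant genes were in the top 200 at both times. Of the 20 ribosomal protein genes in the top 200 at 0 h, 18 were not called and 2 were lower.

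The 15 most abundant transcripts lost, those with the highest level per exon length at 0 h among genes that fell at least 4-fold, were of 2 kinds. Ighm, the constant region of the μ heavy chain at chr12:113418558-113422730 (minus strand), was the most abundant of them. It went from 3304 and 3434 CPM at 0 h to 108 and 104 CPM at 120 h (log2 fold change −4.99, SE 0.0416, adjusted p = 1.99e-58). It fell to 3.14% of its starting level, which still left 1299 and 1157 counts in the 120 h libraries. Cd24a, a glycosylated surface protein of B cell precursors, came next, with 1768 and 1759 CPM at 0 h and 28.0 and 23.9 CPM at 120 h (log2 fold change −6.08, SE 0.0498, adjusted p = 1.01e-58).

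The surrogate light chain was lost more completely. Igll1 went from 614 and 610.3 CPM at 0 h to 0.249 and 0.896 CPM at 120 h (log2 fold change −10.07, SE 0.0934, adjusted p = 1.66e-56). Vpreb1 fell from 269 to 0.479 CPM, to 0.178% of its starting level. Vpreb3 had 3284 and 3172 counts at 0 h and 1 count in each library at 120 h, and was at least 893-fold lower when 3 counts per library are taken as the limit of detection. Vpreb2, a close copy of Vpreb1 with which it may share reads, went from 508 and 436 counts to 0 in both libraries, at least 130-fold lower. The joining segment Ighj4 fell from 155 and 157 counts to 0, at least 43.2-fold lower. Its place in this set rests on its exon length of 54 bases, as its mean at 0 h was only 11.2 CPM. Myl10, a myosin light chain gene and the remaining member of this set, went from 298 to 0.483 CPM.

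The signalling subunits of the receptor kept a larger share of their level than the surrogate light chain. Cd79a had 319.9 and 318 CPM at 0 h and 41.7 and 42.1 CPM at 120 h (log2 fold change −2.93, SE 0.0495, adjusted p = 7.04e-45). Cd79b had 573 and 593 CPM at 0 h and 82.3 and 74.9 CPM at 120 h (log2 fold change −2.89, SE 0.0436, adjusted p = 4.30e-47). Both fell, and both stayed at about the same share of the starting level, 13.1% and 13.5%, whereas Igll1 stood at 0.0935% and Vpreb1 at 0.178%. These genes thus kept unlike shares of their level, and the cause was not tested. At 18 h, Cd79a and Cd79b were at 10.1% and 9.22% of 0 h, so their level at 120 h was not below that at 18 h. The summed feeder markers stood at 234% of 0 h at 18 h and at 6.37% at 120 h.

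The other kind, 5 of which are described here, were genes of the extracellular matrix, the cytoskeleton and their regulators. Acta2, smooth muscle actin, went from 1446 and 1497 CPM at 0 h to 25.8 and 25.0 CPM at 120 h (log2 fold change −5.86, SE 0.0419, adjusted p = 3.29e-61). Sparc, a collagen-binding matrix protein, went from 992 and 1009 CPM at 0 h to 41.7 and 34.9 CPM at 120 h (log2 fold change −4.70, SE 0.0427, adjusted p = 6.58e-57). Bgn, the proteoglycan biglycan, fell from 1450 to 257 CPM, and the metalloproteinase inhibitors Timp1 and Timp2 from 210.0 to 13.1 CPM and from 913 to 170.4 CPM. Acta2 and Sparc are on the list of feeder markers, and all 5 followed its course in the samples between the end points. At 18 h these 5 stood at 192% to 272% of their 0 h level, the feeder markers at 234%, and the 9 lost genes described before them at 3.52% to 17.6%. The share of all 6832 lowered genes that stood at least 1.5-fold above 0 h at 18 h was 31.3%, against 27.4% of all genes tested.

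**Figure D1:**
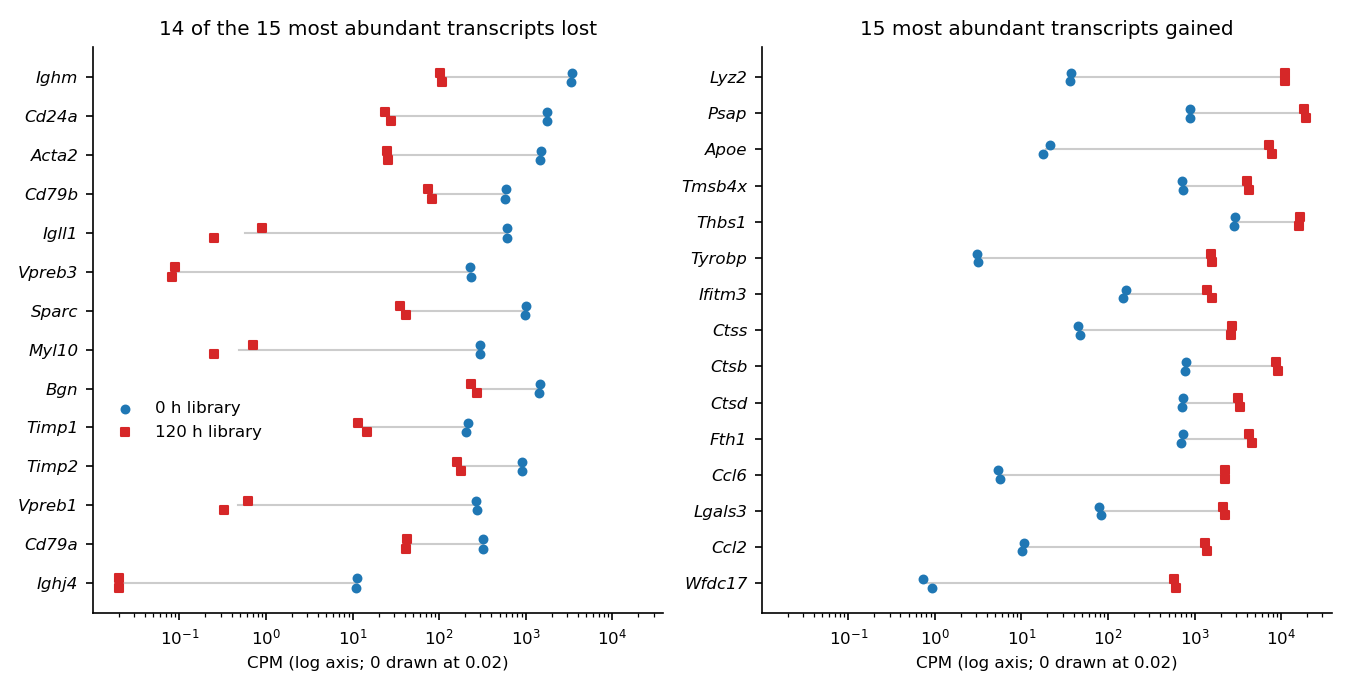
Level in CPM (log axis) of 14 of the 15 most abundant transcripts lost (left) and the 15 gained (right), ordered by level per exon length, with 1 blue circle for each 0 h library and 1 red square for each 120 h library of wild-type cells; grey lines join the means and counts of 0 are drawn at 0.02. Cd79a and Cd79b stay at 41.9 and 78.6 CPM while Igll1, Vpreb1 and Vpreb3 are under 1 CPM at 120 h.

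The 8 genes of at least 10 CPM with the lowest fitted log2 fold changes were all at 0 counts in both libraries at 120 h. Their rank depends on the prior count of the fit, and only a lower bound can be given for each, below the measured fall of Igll1 and the bound of Vpreb3 above. Igfbp3, an IGF-binding protein, was at least 178-fold lower, the protease gene Tll1 at least 156-fold and the Wnt receptor gene Ror2 at least 130-fold. These 3 stood at 180% to 204% of 0 h at 18 h, as the feeder markers did. The remaining 5 were at 3.65% to 15.02% at 18 h. They were the long noncoding RNA 1700027J07Rik (at least 179-fold lower), Tnfrsf19 (138-fold), Sit1, an adaptor of lymphocyte signalling (137-fold), Vpreb2 and Drc7 (120-fold). Of the 6832 genes called lower, 1829 had no more than 3 counts in either library at 120 h.

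The 15 most abundant transcripts gained took 0.740% and 0.757% of all counts at 0 h and 7.42% and 7.21% at 120 h. Lyz2, macrophage lysozyme at chr10:117277331-117282321 (minus strand), had the highest level per exon length of the gained genes at 120 h. It went from 36.5 and 37.6 CPM at 0 h to 11180 and 10965 CPM at 120 h (log2 fold change 8.22, SE 0.0435, adjusted p = 2.60e-66), and Lyz1, its near-identical neighbour with which it may share reads, from 0.0716 to 20.2 CPM. Apoe, the apolipoprotein E gene, went from 17.6 and 21.3 CPM at 0 h to 7911 and 7303 CPM at 120 h (log2 fold change 8.61, SE 0.0577, adjusted p = 2.29e-62). Tyrobp, the adaptor that carries the signal of many myeloid receptors, went from 3.18 and 3.05 CPM at 0 h to 1609 and 1542 CPM at 120 h (log2 fold change 8.98, SE 0.0632, adjusted p = 1.59e-61).

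The gained genes differed in their starting level. Psap, which encodes the precursor of the saposins, took the largest number of counts of the set at 120 h and went from 888 and 897 CPM at 0 h to 19412 and 18427 CPM at 120 h (log2 fold change 4.41, SE 0.0283, adjusted p = 5.26e-63). Thbs1, thrombospondin 1, went from 2882 and 2917 CPM at 0 h to 16126 and 16462 CPM at 120 h (log2 fold change 2.49, SE 0.0225, adjusted p = 5.21e-57). It had stood at 212% of 0 h at 1 h and 287% at 18 h, beside 175% and 234% for the feeder markers. The cathepsins Ctsb, Ctsd and Ctss rose from 782 to 8963 CPM, from 728 to 3260 CPM and from 45.9 to 2672 CPM. Ferritin heavy chain (Fth1) rose from 716 to 4420 CPM, thymosin β4 (Tmsb4x) from 723 to 4100 CPM, Ifitm3 from 154 to 1478 CPM and galectin 3 (Lgals3) from 81.1 to 2209 CPM. At 18 h, Psap, Ctsb, Ctsd and Fth1 stood at 240%, 214%, 219% and 239% of 0 h, beside 234% for the feeder markers. Tmsb4x stood at 136%, and 14 of the 15 gained genes were at least 1.5-fold above 0 h. The part of the feeders in these starting levels was not tested. The chemokines Ccl2 and Ccl6 and the small secreted protein gene Wfdc17 rose from 10.5 to 1347 CPM, 5.47 to 2236 CPM and 0.822 to 595 CPM.

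The 8 genes of at least 10 CPM with the highest fitted log2 fold changes were at 0 counts at 0 h. Their rank again depends on the prior count, and their lower bounds are below the measured 1946-fold rise of the chemokine receptor gene Ccr2. They were Sirpb1a, Sirpb1b and Sirpb1c, paired receptors of phagocytes that are close copies of each other and may share reads, Ms4a8a, Fcgr4, the lectin Mgl2, Cyp4f37 and Mefv, the pyrin of the inflammasome. Sirpb1c had 2045 and 1867 counts at 120 h, at least 784-fold above the limit at 0 h. Ms4a8a had 1608 and 1445 counts (at least 612-fold), and Fcgr4, an Fc receptor for IgG, 807 and 762 counts (at least 315-fold).

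Described by group, the macrophage lists moved together. Of 35 receptors tested, 34 rose, with a median log2 fold change of 8.50 (8.30 with undetected genes at their bound) beside −0.36 over all genes tested. The mannose receptor Mrc1 rose from 2.12 to 2520 CPM, the signal regulatory protein Sirpa from 17.9 to 2347 CPM and Csf1r, the receptor of CSF-1, from 7.69 to 2100 CPM. The chemokine receptor Ccr2 went from 1.07 to 2085 CPM and the Toll-like receptor Tlr2 from 5.15 to 2084 CPM. Axl, a receptor for apoptotic cells, was the exception and fell from 436 to 265 CPM. It had stood at 189% of 0 h at 18 h.

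Of 19 transcription factors of macrophages, 17 rose and 2 were not called, with a median log2 fold change of 3.51. Atf3 rose from 109.6 to 1561 CPM, Bhlhe40 from 211 to 629 CPM and Id2 from 109 to 545 CPM. Irf8, which acts in both lineages, was not called, at 169 and 214 CPM, nor was Bhlhe41, at 41.6 and 37.1 CPM. Of 24 lysosomal genes, 21 rose, 1 fell (Ctsk, from 22.1 to 9.19 CPM) and 2 were not called, with a median of 2.89. Of 6 genes of the phagocyte oxidase, 5 rose, with a median of 3.77. Its catalytic subunit Cybb went from 17.5 to 2896 CPM and the organizer Ncf1 from 6.14 to 433 CPM, while the GTPase Rac2 was at 377 and 542 CPM and was not called.

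Of 27 secreted proteins tested, 25 rose, with a median of 7.21 (7.14 at the bound). Il1b, interleukin 1β, went from 0.251 to 548 CPM, Lpl, lipoprotein lipase, from 7.94 to 3821 CPM and C1qb of the complement from 1.58 to 606 CPM. Fibronectin (Fn1), the most abundant secreted protein gene of the list at 0 h, changed the least among those that rose, with 4807 and 4858 CPM at 0 h and 9194 and 9106 CPM at 120 h (log2 fold change 0.92, SE 0.0227, adjusted p = 1.50e-37). It had stood at 250.1% of 0 h at 18 h. Chil3 was the 1 gene that fell, from 3.98 CPM to 3 counts or fewer per library. Of 16 genes of iron and lipid handling, 13 rose, among them the ferroportin gene Slc40a1 from 3.9 to 54.9 CPM, while the desaturase Scd1 fell from 271 to 38.1 CPM. Over the macrophage lists, 115 of 127 genes tested rose (90.6%, beside 23.1% of all genes) and 4 fell.

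B cell genes were read in 4 lists of 85 genes, 84 of them tested. Of these, 55 fell (65.5%, beside 40.2% of all genes), 20 rose and 9 were not called. Of 22 transcription factors, 18 fell, with a median log2 fold change of −4.33. Pax5, the factor that commits cells to the B lineage, went from 875 and 883 CPM at 0 h to 1.41 and 1.34 CPM at 120 h (log2 fold change −9.31, SE 0.08, adjusted p = 7.37e-58). Ebf1 fell from 425 to 2.77 CPM, the coactivator Pou2af1 from 456 to 1.34 CPM and Ikzf3 (Aiolos) from 258 to 0.293 CPM. Of 25 receptor and signalling genes, 18 fell, with a median of −4.99 (−2.87 with undetected genes at their bound). Of 10 genes of V(D)J recombination, 7 fell, with a median of −2.96. Rag1 fell from 1209 and 1147 counts to 2 and 3, and Rag2 from 246 and 245 counts to 0 in both libraries. Dntt, the terminal transferase that adds bases at the joints, fell from 148 to 0.211 CPM. The shared repair genes did not all follow, and Dclre1c (Artemis) rose from 25.3 to 228 CPM. The 27 surface proteins tested were split into 12 that fell and 12 that rose, with a median of 0.33.

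The same genes were also divided by use outside the B lineage. Among 47 genes marked as restricted to B cells and counted at 1 CPM or more at 0 h, the median level at 120 h was 1.09% of that at 0 h, and 23 genes were under 1%. Among 36 genes that macrophages also use, the median was 119% and none was under 1%. These marks come from general knowledge of the genes and were set when earlier results of these data were known, so the contrast is a description.

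**Figure D2:**
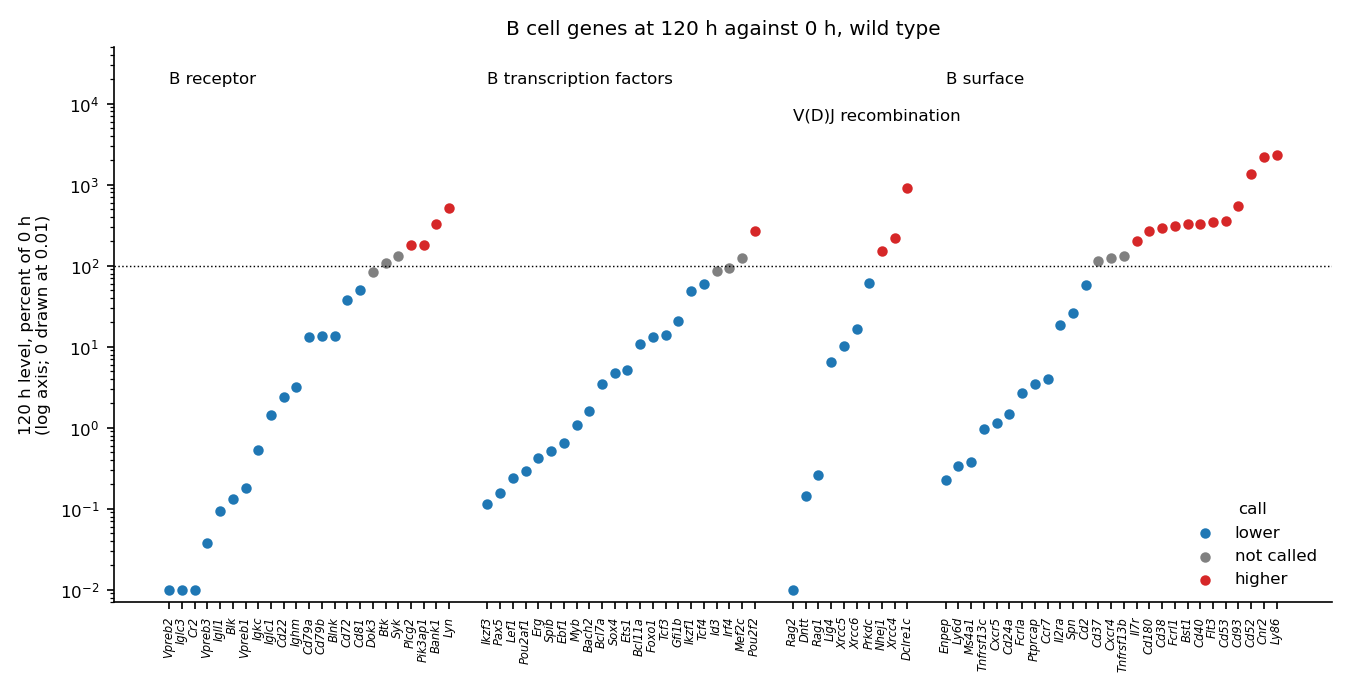
Mean level at 120 h as a percentage of that at 0 h (log axis) for 82 of the 83 B cell genes of at least 1 CPM at 0 h, in 4 lists, ordered within a list; blue genes were called lower, red higher and grey not called, genes at 0 are drawn at 0.01, and the dotted line marks no change. The lowered genes spread from under 0.1% to about 60%, with Cd79a, Cd79b and Blnk together near 13%.

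Of the 83 B cell genes with at least 1 CPM at 0 h, 29 were kept, that is, not called lower at 120 h. Of these, 20 were higher and 9 not called. All but 6 of the 29 carry the mark for genes that macrophages also use. The 9 not called were the kinases Btk and Syk, the adaptor Dok3, the transcription factors Irf4, Mef2c and Id3, the tetraspanin Cd37, the chemokine receptor Cxcr4 and Tnfrsf13b (TACI), with log2 fold changes between −0.28 and 0.41. Btk, the kinase downstream of the B cell receptor, had 146 and 146 CPM at 0 h and 156 and 162 CPM at 120 h (log2 fold change 0.12, SE 0.0415). Irf4 had 195 and 183 CPM at 0 h and 171 and 178 CPM at 120 h (log2 fold change −0.11, SE 0.0446). Cd37 had 181 and 182 CPM at 0 h and 216 and 202 CPM at 120 h (log2 fold change 0.20, SE 0.0419). The sign of these 3 and of Mef2c turned under another scaling, and that of Id3 when the 4 libraries were fitted alone, so no direction is given for them. All 9 met the threshold for adjusted p and were not called because their change was below the fold threshold. Being not called therefore does not show that the levels were equal.

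Genes that were kept and rose included parts of the B cell receptor's downstream machinery. The kinase Lyn went from 95.8 and 99.5 CPM at 0 h to 500.4 and 516 CPM at 120 h (log2 fold change 2.38, SE 0.0391, adjusted p = 2.03e-45). Plcg2, the phospholipase that acts after it, went from 252 to 458 CPM, and the adaptor Pik3ap1 (BCAP) from 163 to 296 CPM. Among surface proteins, Cd93 rose from 236 to 1285 CPM, the tetraspanin Cd53 from 271 to 963 CPM and Cd52 from 43.5 to 594 CPM. The pair Cd180 and Ly86 (MD-1), which form one receptor complex, rose from 87.4 to 233 CPM and from 8.06 to 189 CPM. The octamer factor Pou2f2 (Oct-2) rose from 20.1 to 53.6 CPM, while its coactivator Pou2af1 fell. Bst1, Cd38, Cd40, Xrcc4 and Nhej1 also rose, by log2 fold changes of 1.69, 1.55, 1.70, 1.13 and 0.59.

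The 6 kept genes that are marked as restricted to B cells were low or moderate in level. The mark was not checked against other cell types here, so a rise of these genes is not read as a retained B cell trait. Il7r, the receptor chain for the cytokine that was left out of the renewed medium, had 54.5 and 53.5 CPM at 0 h and 101 and 114 CPM at 120 h (log2 fold change 0.99, SE 0.0562, adjusted p = 6.46e-22). Bank1, a scaffold protein of B cell receptor signalling, rose from 4.17 and 4.21 CPM at 0 h to 13.2 and 14.2 CPM at 120 h (log2 fold change 1.71, SE 0.155, adjusted p = 2.77e-14). Fcrl1, an Fc receptor-like protein of B cells, rose from 7.06 and 7.11 CPM at 0 h to 20.4 and 23.5 CPM at 120 h (log2 fold change 1.63, SE 0.117, adjusted p = 7.34e-18). Cnr2, a cannabinoid receptor, rose from 3.07 to 68.3 CPM. Flt3, a receptor of early progenitors, rose from 1.07 to 3.74 CPM, a low level. Tnfrsf13b, with 96.7 and 94.6 CPM at 0 h and 128 and 121 CPM at 120 h, was not called (log2 fold change 0.38, SE 0.0509).

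A further 15 B cell genes fell but kept at least 10 CPM at 120 h. Ikzf1 (Ikaros) had the highest level, from 421 to 205 CPM, followed by Cd81, Tcf4 and Ighm, at 177, 146 and 106 CPM. The E protein gene Tcf3 was at 14.03% of its 0 h level, Foxo1 at 13.1%, the adaptor Blnk at 13.7% and Cd72, an inhibitory receptor, at 37.7%. At the other extreme, 10 of the 54 lowered genes had at most 3 counts in each library at 120 h.

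Most of the kept genes did not hold their level through the time course. At 18 h, 22 of the 29 stood at or under 0.67 times their 0 h mean, 5 lay in between and 2, Flt3 and Cnr2, were at least 1.5-fold above it. Their median at 18 h was 39.6% of 0 h. These are means of 2 libraries, given without a test. Among the 9 that were not called, 8 had a mean below 0 h at 18 h. Irf4 stood at 30.2% of 0 h at 1 h, 9.18% at 18 h and 92.6% at 120 h. Cd37 stood at 38.9%, 10.8% and 115%, and Cxcr4 at 69.9%, 17.7% and 126%. Id3 was the 1 of the 9 without such a dip, at 117% and 86.4% at the last time points. Genes that fell by 120 h were also low at 18 h, with a median of 9.22% over the 55 B cell genes called lower. Beside this, the summed feeder markers stood at 234% of 0 h at 18 h, and 25.7% of all genes tested were at or under 0.67 times their 0 h mean. The part of the feeders in the dip was not tested.

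**Figure D3:**
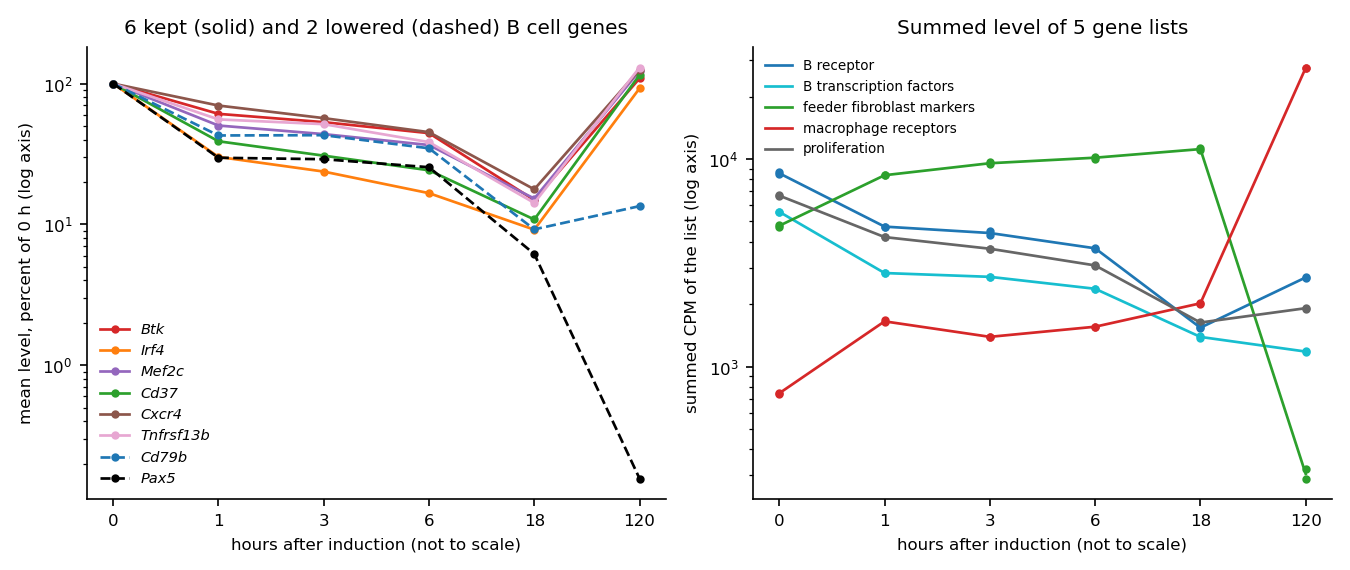
Left, mean level of 6 kept and 2 lowered B cell genes in wild-type cells as a percentage of 0 h (log axis) at each time; right, summed CPM (log axis) of 5 gene lists, with points for the 2 libraries and lines through their means; hours are evenly spaced, not to scale. The 6 kept genes shown are from the 9 not called. They fall to between 9.18% and 17.7% of 0 h at 18 h and are near 100% at 120 h. Not shown are Syk, Dok3 and Id3, at 26.8%, 39.6% and 117% at 18 h. The feeder markers rise until 18 h and are lowest at 120 h.

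The changes were set beside those in cells with the mutant constructs, whose 0 h and 120 h libraries are their own. In R35A cells, 39.0% of genes tested were called lower and 24.2% higher between 0 h and 120 h, and in R35K cells 38.5% and 25.4% of 16434. Of the genes lower in wild-type cells, 84.7% were called lower in R35A cells and 86.7% of those tested in R35K cells. Of the genes higher in wild-type cells, 87.1% and 90.7% were called higher in R35A and R35K cells. Opposite calls numbered 41 and 26 among the lowered genes and 17 and 6 among the raised ones. Pax5 changed by −9.03 in R35A and −10.01 in R35K cells on the log2 scale, and Lyz2 by 9.23 and 8.81.

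Of the 29 B cell genes kept in wild-type cells, 16 were higher, 11 not called and 2 lower in R35A cells, and 15, 12 and 2 in R35K cells. The 2 lowered in both mutants were Irf4 and Flt3. Irf4 changed by −1.83 in R35A and −1.06 in R35K cells on the log2 scale, beside −0.11 in wild-type cells, and the difference between R35A and wild type was −1.72 (SE 0.069, adjusted p = 2.45e-26, edgeR). Ighm changed by −7.05 in R35A and −6.57 in R35K cells beside −4.99 in wild-type cells, with a difference of −2.06 between R35A and wild type (SE 0.0617, adjusted p = 3.50e-31). Cd79b changed by −4.003 and −3.17 in the mutants beside −2.89, a difference of −1.11 for R35A (SE 0.0684, adjusted p = 4.10e-19). The difference was not tested for R35K. Sparc, of the feeder list, changed by −3.18 and −3.50 beside −4.70, a difference of 1.52 for R35A (SE 0.0558, adjusted p = 6.97e-28). The summed feeder markers at 120 h were 922 and 723 CPM in R35A and R35K cells against 304 CPM in wild-type cells. The R35K value was scaled within its own libraries, so it is not on one scale with the other values.

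**Figure D4:**
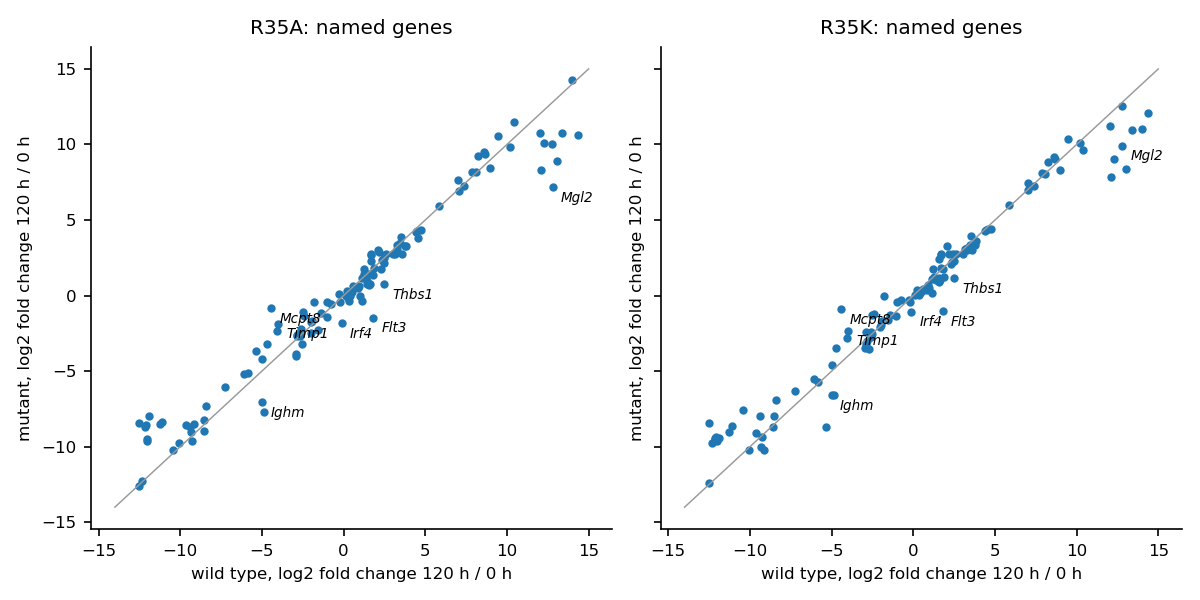
Log2 fold change from 0 h to 120 h of the named genes in wild-type cells (horizontal) against that in R35A (left) and R35K (right) cells (vertical), 1 point a gene, with a grey line of equal change. Ighm, Irf4, Thbs1 and Flt3 lie below the line and Timp1 and Mcpt8 above it in both panels; values beyond 12 in size belong to genes at or near 0 counts in a group and depend on the prior count.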

How the data were processed

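The tables used here were deposited as raw counts per gene, 40354 genes in 36 libraries. Per the labels and the study's methods, polyadenylated RNA was sequenced from stranded libraries as 50-base single-end reads, with 2 biological replicates per group. After a FastQC check, the authors used STAR (2.5.0a) for alignment to mm10 and for the count of reads per gene. The annotation release and the strand setting of the counts are not given in the sources used here, so antisense and overlapping genes may share counts. The authors' tables of log2 normalized counts, made with DESeq2 (1.14.1), were not used, and the files of other assays were not analysed here.

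Counts were fitted with edgeR's quasi-likelihood test (edgeR 4.0.16, limma 3.58.1, R 4.3.3) on the 24 wild-type and R35A libraries in 12 groups, after filterByExpr and TMM scaling, so that all groups share 1 estimate of the spread (biological coefficient of variation 3.17%). The 12 R35K libraries were fitted alone. Genes were called at a 1.5-fold change and an adjusted p (Benjamini-Hochberg) of 0.05 or less. A group with no more than 3 counts in each library was treated as undetected, and fold changes against it are lower bounds from 3 counts per library, covering counting error only. Ranks between genes used counts per kilobase of GENCODE vM21 exons, which gave lengths to 97.1% of symbols.

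Named genes were the 15 most abundant genes per length lost and gained at least 4-fold, the 8 largest fitted changes each way at 10 CPM or more, every kept B cell gene, the 8 lowered B cell genes highest at 120 h, the 3 highest genes of each of 19 lists and 12 lineage genes, 128 in all, of which 2 are not reported here. The members and lists were chosen with earlier results of these data known. Alternatives were DESeq2 (1.42.0), its size factors, total counts, other filters and thresholds, the 4 libraries alone, a replicate block and leaving out each library. Replicate numbers were not used as pairs. The replicate difference at 0 h correlated with that at 120 h by −0.05 over 11121 genes, as a description. Squared replicate differences were 1.24 and 1.97 times counting noise, so this value cannot show whether the samples were paired.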

Additional observations from a re-analysis of the deposited data

Results flagged for a closer look

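For the named genes below the change from 0 h to 120 h differed between R35A and wild-type cells by at least 1.5-fold in a test of the difference itself (edgeR, adjusted p of at most 0.05). Each value below is that difference in log2 fold change, R35A minus wild type, and no cause was tested.

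Among genes of the B lineage, the difference was negative for Ighm (−2.06), Irf4 (−1.72), Cd79b (−1.11), Cd79a (−0.92), Il7r (−1.04), Flt3 (−3.27), Fcrl1 (−0.83), Cxcr4 (−0.68), Pou2f2 (−0.64) and the plasma cell marker Sdc1 (−1.48). It was positive for Bank1 (0.96), Cd24a (0.88), Cd40 (1.03), Ebf1 (1.19), Pou2af1 (1.09) and Vpreb3 (2.76), the last with 1 count in each wild-type library at 120 h. For antigen presentation it was −0.89 for Cd74, −0.70 for H2-Ab1 and −0.87 for H2-DMa.

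Genes of the matrix and of the feeder list had positive differences, with 0.74 for Acta2, 1.43 for Bgn, 1.75 for Col5a1, 1.52 for Sparc, 2.14 for Timp1 and 1.09 for Timp2. The summed feeder markers were 922 CPM in R35A and 304 CPM in wild-type cells at 120 h.

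Among macrophage and other myeloid genes it was positive for Lyz2 (1.01), Apoe (0.88), Ctsd (0.73), Ccl2 (0.65), Ccl6 (0.68), Wfdc17 (1.06), Mmp8 (1.05), Mmp9 (0.91) and S100a9 (1.66). It was negative for Thbs1 (−1.75), Bhlhe40 (−0.82), Id2 (−0.59), Ly86 (−0.71) and Mgl2 (−5.63), which was at 0 counts in wild-type cells at 0 h so that its size depends on the prior count. For the remaining markers it was −2.84 for Kit, 3.59 for Mcpt8 and 1.37 for Zbtb46. Kit was at 0.0719 CPM in R35A cells at 120 h, under the limit of 3 counts, so that the size of its difference also depends on the prior count.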

How the results depend on the processing

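The counts of genes lower and higher at 120 h, of B cell genes lower or kept and of macrophage genes higher stayed within 1.5 times their values under all 13 alternatives run. Relative to TMM, DESeq2's size factors moved the median log2 fold change by 0.16, its Wald test by 0.16, total counts by −0.32, the 4 libraries alone by 0.24, the filter at 10 counts by 0.13 and leaving out either 120 h library by 0.12 and 0.13, so directions near 0 depend on scaling. Of the calls, 36.5% were higher by TMM, 26.7% by total counts (3130 higher, 8572 lower) and 46.5% in the 4 libraries alone (4483 higher, 5153 lower). With a replicate block, 3923 genes were higher and 6828 lower. Whether the replicate numbers pair the samples is not known.

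Among the 126 named genes tested, 5 changed sign. Irf4 was at 0.123 in the 4 libraries alone, 0.0464 by the Wald test, 0.0462 by the size factors of DESeq2 and 0.0132 under the filter at 10 counts, and between −0.157 and 0.0468 when 1 library was left out, the latter without replicate 1 at 120 h. Id3 was at 0.0239 in the 4 libraries alone. With total counts, Btk was at −0.20, Cd37 at −0.12 and Mef2c at −0.0238. None of the 5 was called in the main comparison. Over all alternatives, values for named genes lost a call 15 times and gained one 9 times. Tcf4, Prkdc and Cd2 were no longer called lower in the 4 libraries alone, and Dok3 was called lower with total counts. Depth limits genes near 3 counts, where only bounds are given.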

Other observations

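Genes of the cell cycle were lower at the end point. Of 28, 24 fell (85.7%, beside 40.2% of all genes tested), 1 rose and 3 were not called, with a median log2 fold change of −1.88 beside −0.36 over all genes. Mki67 went from 1328 to 219 CPM and the replication factor Mcm5 from 429 to 70.0 CPM, while Myc rose from 34.7 to 130.3 CPM. The lowest measured level of Mki67 was not at the end: it stood at 9.69% of 0 h at 18 h and at 16.5% at 120 h. The summed feeder markers stood at 234% of 0 h at 18 h and at 6.37% at 120 h, and their part in this was not tested. Of 10 genes of MHC class II, 5 fell, 4 rose and 1 was not called, beside 40.2% lower and 23.1% higher of all genes tested, so that the counts of these few genes are given as a description. The class II chains H2-Aa, H2-Ab1 and H2-Eb1 fell from 63.6 to 22.6 CPM, from 73.6 to 25.1 CPM and from 44.2 to 10.4 CPM, and so did their activator Ciita, from 19.6 to 1.81 CPM. The invariant chain Cd74 rose from 263 to 785 CPM and the peptide loader H2-DMa from 18.7 to 228 CPM.

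Markers of other blood cells are given as counts of few genes, to be read beside the 40.2% lower and 23.1% higher of all genes tested. Of 15 granulocyte markers tested, 9 fell and 5 rose. Mmp8, a collagenase known from neutrophils, rose from 1.83 to 2502 CPM, while Elane, Camp and Ctsg had at most 3 counts in each library at 120 h. Of 4 dendritic cell markers tested, 2 fell and 2 rose, among them the lectin Clec10a, from 2 and 0 counts at 0 h to 331 CPM. All 3 T and NK cell markers and all 4 mast cell markers tested fell, with summed levels of 13.2 and 38.8 CPM at 0 h. Of 2 erythroid and platelet markers tested, 1 fell and 1 rose. Of 6 plasma cell markers, 3 fell and 3 rose, with Sdc1 going from 145 to 318 CPM and Prdm1 from 6.54 to 41.5 CPM, while Mzb1 fell from 142 to 0.166 CPM.

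Some gained transcripts were far above 0 h at the earliest time point. Lyz2 stood at 1698% of 0 h at 1 h, 1017% at 3 h, 1042% at 6 h, 1416% at 18 h and 29922% at 120 h. Tyrobp stood at 1963% of 0 h at 1 h, 1287% at 3 h, 1340% at 6 h, 2613% at 18 h and 50621% at 120 h. Both were lower at 3 h than at 1 h. Over the same first hour the summed B cell receptor genes went to 55.3% of 0 h and the feeder markers to 175%. The cause was not tested.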
